A study of Rattus norvegicus with 24 samples.

Results

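The liver's transcripts after 3 daily doses of metformin were compared with those after 3 doses of the vehicle, using 8 of the 24 arrays of the series, which are the 4 titled metformin liver at day 3 and the 4 titled control liver at day 3. Each array carried the liver RNA of 1 male RccHan Wistar rat aged 7 to 8 weeks. Metformin rats received 800 mg/kg by gavage, and control rats received the vehicle of ethanol, Kolliphor HS 15 and tap water by the same route. The design text states 5 animals per group, of which 4 per group were analysed here; rats were housed 2 or 3 to a cage, and the cage of each rat is not given in the labels. The other 16 arrays, from metformin and control rats killed after 1 or 14 days, entered the estimate of the spread and a comparison of days. The days share no rats and no controls. Whole liver was used, so hepatocytes and the other cells of the tissue contributed to each value. All 22093 genes with a single annotated symbol were taken, of which 19686 were bright enough to test.

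Metformin is a biguanide that lowers blood glucose, acts largely on the liver and is known to inhibit complex I of the respiratory chain. Hepatocytes secrete most plasma proteins. Such proteins enter the endoplasmic reticulum (ER) as they are made, leave it in vesicles coated with COPII, pass the Golgi, where sugars are added and trimmed, and are sorted there, while COPI vesicles return lipids and proteins to the ER. Cells watch over this path with stress responses. The unfolded protein response raises ER chaperones, the integrated stress response acts through the transcription factor ATF4 on amino acid supply and tRNA charging, and a Golgi stress response raises genes of the Golgi itself.

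In the metformin livers of day 3, genes of the Golgi and of vesicle transport rose together with genes that build ribosomes and handle tRNA, and a stress-induced nuclear protein, Nupr1, rose most. At an adjusted p under 0.05, counted as a call, 50 of the 19686 tested genes (0.254%) passed. Of these, 48 were higher in metformin livers (0.244% of tested genes) and 2 were lower (0.0102%). In each of the 50 all 4 metformin rats lay beyond all 4 controls, which happened in 3.68% of tested genes upwards and in 3.41% downwards. Among the 48, 12 carried pseudogene symbols, so 38 genes are named below, 36 of them higher, with log2 changes from 0.31 to 1.93 and a median of 0.59. After cyclic loess, 48 of 62 calls were higher. One animal could decide the number of calls. Leaving out control rats 1, 2, 3 and 4 in turn gave 3, 43, 20 and 1 calls, and leaving out metformin rats 1, 2, 3 and 4 in turn gave 372, 1, 1 and 2. Fitted to the 8 arrays of day 3 alone it was 0, with 2420 genes at an unadjusted p under 0.05.

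The arrays were close to one another. The 8 arrays of day 3 correlated across genes at 0.990 to 0.995, and the median log2 intensity over all probe sets was 4.83 to 5.02 in control rats and 4.80 to 4.91 in metformin rats. Over all tested genes the median log2 change was -0.03, and 42.7% lay above 0. This shift followed brightness. Among genes with a mean log2 intensity up to 5 the median change was -0.10, and between 8 and 9 it was 0.06. The 38 called genes that are not pseudogene symbols had control means from 5.60 for Zfp9 to 10.66 for Nupr1 on the log2 scale, and the 12 called pseudogene symbols from 8.01 to 16.81. The part of brightness in the results was not tested.

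Of the 36 named rises, 15 were grouped under the secretory pathway, 8 under ribosomes, tRNA and translation, and 2 under mitochondrial gene expression, a grouping made after the values were seen. The secretory group was drawn broadly and takes in Entpd7, an enzyme of internal membranes, and the membrane-cutting protein Chmp1b2. The secretory genes are given first. Golph3l, a relative of the Golgi protein GOLPH3 that binds phosphatidylinositol 4-phosphate on Golgi membranes, measured 8.94, 9.11, 9.59 and 9.50 (log2 intensity) in control rats 1 to 4 and 9.82, 10.77, 10.73 and 10.79 in metformin rats 1 to 4. It rose 2.37-fold (log2 change 1.24 ± 0.21 SE, limma adjusted p = 0.0192). Metformin rat 1 lay nearest to the controls, and the other metformin rats lay close together.

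Entpd7, an enzyme of internal membranes that hydrolyses nucleoside triphosphates, measured 7.04, 7.06, 7.16 and 7.01 in controls and 7.74, 8.53, 8.07 and 8.57 under metformin. This was a 2.23-fold rise (1.16 ± 0.22, limma adjusted p = 0.0269), and the controls were tight while the metformin rats spread widely. Sec23b, an inner-coat subunit of COPII vesicles, measured 9.85, 9.98, 10.14 and 10.02 against 10.48, 11.36, 11.05 and 11.53, a 2.16-fold rise (1.11 ± 0.20, limma adjusted p = 0.0192). Arfgap3, which switches off Arf1 on COPI-coated membranes, measured 8.84, 8.86, 8.85 and 8.57 against 9.22, 10.03, 9.73 and 10.13, a 2.00-fold rise (1.00 ± 0.18, limma adjusted p = 0.0239). In these 3 genes metformin rats 2 and 4 were highest and rat 1 was lowest.

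Gmppb makes GDP-mannose, the mannose donor for glycosylation. It measured 7.29, 7.03, 7.41 and 7.37 in controls and 7.60, 8.48, 8.15 and 8.52 under metformin, a 1.88-fold rise (0.91 ± 0.18, limma adjusted p = 0.0292). Ufl1, the ligase that attaches the small protein UFM1 to ER-bound ribosomes, measured 10.45, 10.37, 10.42 and 10.30 against 10.70, 11.28, 11.28 and 11.31, a 1.69-fold rise (0.76 ± 0.12, limma adjusted p = 0.0180). Its 4 controls lay within a narrow band, and metformin rat 1 again stood below the rest of its group.

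The other 9 secretory genes rose by 0.36 to 0.66 on the log2 scale. Among the Golgi's structural proteins were the golgin Golga3 (0.64) and Blzf1, also called golgin-45 (0.66). The conserved oligomeric Golgi complex, which tethers vesicles within the Golgi, was represented by Cog3 (0.51). Stx5 (0.57) is the SNARE through which vesicles fuse on the way between ER and Golgi, and Scfd1 (0.54) encodes the Sly1 protein that binds it. Slc35c1 (0.48) carries GDP-fucose into the Golgi, and Atp6v0a2 (0.56) is a membrane subunit of the proton pump that acidifies it. Piga (0.36) starts the synthesis of glycolipid anchors in the ER, and Chmp1b2 (0.52) belongs to the ESCRT-III family of membrane-cutting proteins.

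**Figure D1:**
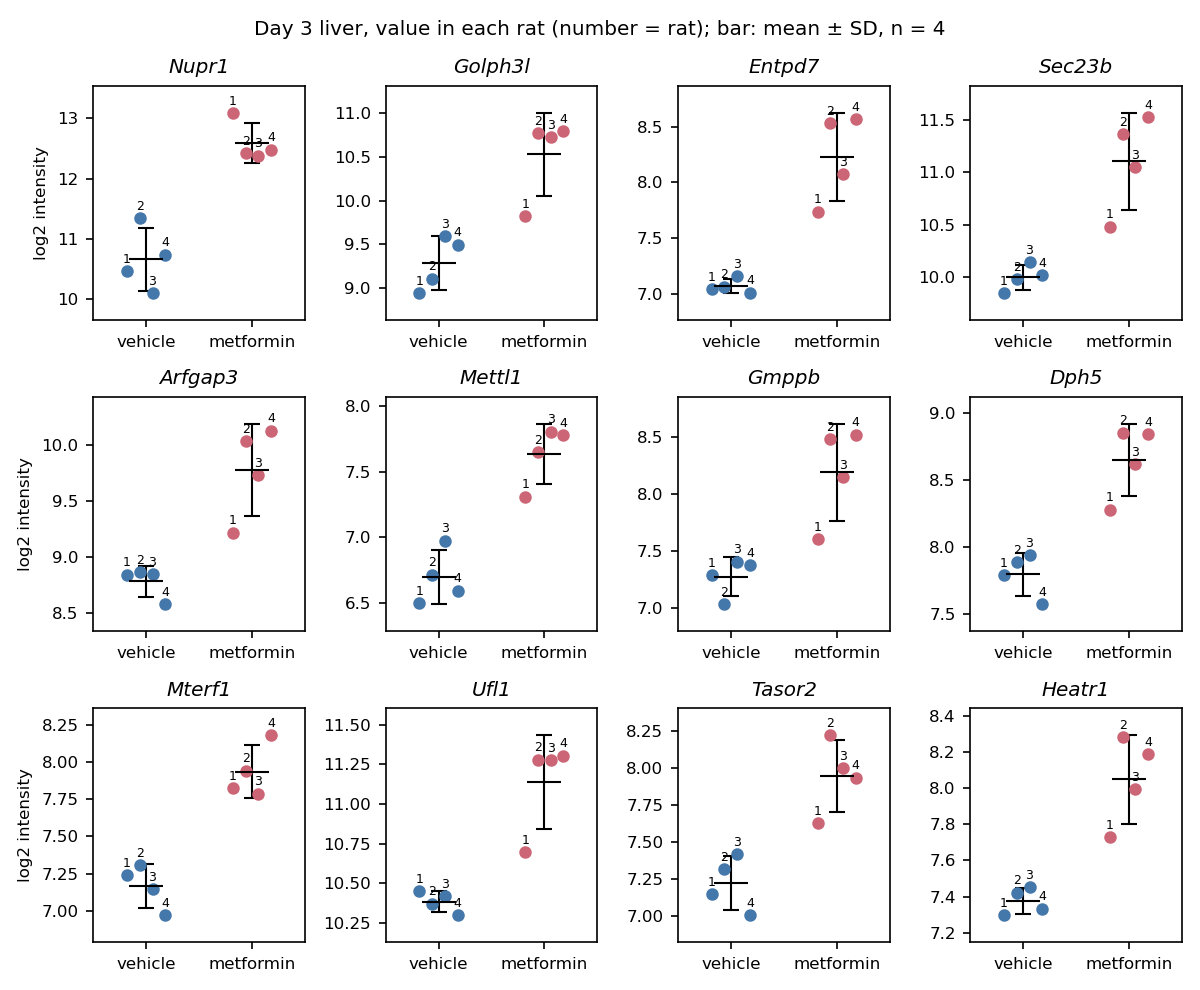
Log2 intensity of the 12 named genes with the largest change on day 3, one point per rat with its replicate number, 4 control (vehicle) rats in blue and 4 metformin rats in red; the bar gives mean ± SD. Each axis has its own range. In all 12 genes the groups do not overlap, and metformin rat 1 is the lowest of its group in 10 of them and the highest for Nupr1.

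The promoters of these 15 genes, which were picked as called rises, were then compared. They are shown as RefSeq gives them on the GRCr8 build, 250 bases before and 50 bases after the annotated start of the gene, read 5′ to 3′ on the gene's strand. All 15 genes matched a promoter, and 6 of the 15 (40.0%) held ACGTGGC on either strand, the letters of the Golgi stress element, against 2.30% of all 33469 rat promoters and 2.96% of the 15299 promoters of tested genes. Over all named rises it was 8 of 29 matched promoters (27.6%), with Cdk7 and Jpt2 as carriers outside the secretory group. The 6 secretory promoters are printed here, with matches to any searched motif in capitals.
Stx5, chr1:215066282-215066581, plus strand: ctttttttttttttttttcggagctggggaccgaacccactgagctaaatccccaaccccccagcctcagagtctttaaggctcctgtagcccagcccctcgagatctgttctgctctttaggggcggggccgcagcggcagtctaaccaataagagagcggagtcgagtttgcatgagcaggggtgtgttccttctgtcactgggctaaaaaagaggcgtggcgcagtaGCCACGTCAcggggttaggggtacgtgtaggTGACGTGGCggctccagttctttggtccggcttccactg
Scfd1, chr6:74531033-74531332, plus strand: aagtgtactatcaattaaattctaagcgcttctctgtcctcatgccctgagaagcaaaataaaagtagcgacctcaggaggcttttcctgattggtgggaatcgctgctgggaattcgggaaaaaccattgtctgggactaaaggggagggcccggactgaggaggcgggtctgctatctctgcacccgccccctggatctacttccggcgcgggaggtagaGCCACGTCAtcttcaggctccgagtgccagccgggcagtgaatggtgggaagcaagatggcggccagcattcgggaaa
Golga3, chr12:52160177-52160476, minus strand: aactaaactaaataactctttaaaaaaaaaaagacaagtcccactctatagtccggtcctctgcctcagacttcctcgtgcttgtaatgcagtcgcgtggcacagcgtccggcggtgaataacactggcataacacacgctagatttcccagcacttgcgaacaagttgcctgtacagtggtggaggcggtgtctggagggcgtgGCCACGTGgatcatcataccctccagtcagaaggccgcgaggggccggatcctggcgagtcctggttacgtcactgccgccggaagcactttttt
Entpd7, chr1:252508344-252508643, plus strand: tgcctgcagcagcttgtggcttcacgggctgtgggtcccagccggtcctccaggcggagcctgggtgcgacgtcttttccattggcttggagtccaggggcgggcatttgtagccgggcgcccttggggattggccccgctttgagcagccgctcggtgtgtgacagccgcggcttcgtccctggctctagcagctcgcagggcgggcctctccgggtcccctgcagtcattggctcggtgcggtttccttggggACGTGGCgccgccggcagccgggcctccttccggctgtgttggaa
Gmppb, chr8:117616155-117616454, plus strand: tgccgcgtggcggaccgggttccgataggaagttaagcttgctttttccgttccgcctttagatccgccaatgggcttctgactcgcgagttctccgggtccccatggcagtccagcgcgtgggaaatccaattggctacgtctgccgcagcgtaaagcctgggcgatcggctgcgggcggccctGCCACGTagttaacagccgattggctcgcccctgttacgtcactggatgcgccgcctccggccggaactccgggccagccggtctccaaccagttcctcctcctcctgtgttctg
Cog3, chr15:57479869-57480168, minus strand: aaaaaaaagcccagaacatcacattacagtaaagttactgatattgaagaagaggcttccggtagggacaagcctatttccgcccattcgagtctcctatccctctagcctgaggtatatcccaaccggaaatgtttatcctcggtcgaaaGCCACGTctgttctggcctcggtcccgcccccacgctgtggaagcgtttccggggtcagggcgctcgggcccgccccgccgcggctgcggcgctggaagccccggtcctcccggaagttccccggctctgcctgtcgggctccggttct
The match starts at base -20 and again at 14 in Stx5, at -28 in Scfd1, at -45 in Golga3, at 6 in Entpd7, at -65 in Gmppb and at -99 in Cog3, counted from the start of the gene as 1 and with no base 0. In Stx5 and Scfd1 the capitals are longer because the overlapping letters TGACGTGG, the unfolded protein response element, match there as well; these letters were in 2 of the 15 promoters and in 0.595% of all. In Golga3 they run on into CACGTG, the E-box, which 3 of the 15 promoters held against 6.42% of all. The ER stress element, a longer motif searched on both strands, was in 0 of the 15. Golph3l, Sec23b and Arfgap3 had no ACGTGGC in these windows. A match describes letters and is not a measured binding site. The Golgi, SNARE, COPII and COPI lists described below include genes without a call. They held ACGTGGC in 16.7%, 23.8%, 25.9% and 36.8% of their matched promoters. Whether the letters go with the rise or with the class of gene was not tested.

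The 8 genes of ribosomes, tRNA and translation rose by 0.47 to 0.94 on the log2 scale. Mettl1, the catalytic subunit of the enzyme that places 7-methylguanosine in tRNA, measured 6.50, 6.71, 6.97 and 6.59 in controls and 7.31, 7.65, 7.81 and 7.78 under metformin. This was a 1.92-fold rise (0.94 ± 0.19, limma adjusted p = 0.0325), with rats 3 and 4 highest. Dph5, a methyltransferase in the synthesis of diphthamide, the modified histidine of elongation factor 2, measured 7.79, 7.89, 7.94 and 7.57 against 8.28, 8.86, 8.62 and 8.84, a 1.81-fold rise (0.85 ± 0.15, limma adjusted p = 0.0192). Heatr1, a factor of the processome that assembles the small ribosomal subunit, measured 7.30, 7.42, 7.45 and 7.33 against 7.73, 8.28, 7.99 and 8.19, a 1.59-fold rise (0.67 ± 0.14, limma adjusted p = 0.0464). Here too metformin rat 1 was lowest and the controls spanned a small part of the distance between the groups. Pwp1, which acts on ribosomal RNA synthesis, rose by 0.67, Noc3l, a factor of the large subunit, by 0.63 and Utp20, another processome protein, by 0.55. Xpot, the exporter of tRNA from the nucleus, rose by 0.51, and Nopchap1, a helper in the assembly of small nucleolar ribonucleoproteins, by 0.47.

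Both mitochondrial genes act in the expression of the mitochondrial genome. Mterf1, a protein that binds mitochondrial DNA at the end of the ribosomal RNA genes, measured 7.24, 7.31, 7.15 and 6.97 in controls and 7.82, 7.94, 7.79 and 8.18 under metformin. It rose 1.70-fold (0.77 ± 0.10) with the smallest adjusted p of day 3 (limma adjusted p = 0.00404), and it was the only one of the 38 named genes that stayed called whichever of the 8 day 3 arrays was left out (highest adjusted p = 0.036). Qrsl1, a subunit of the enzyme that makes glutaminyl-tRNA in mitochondria, rose by 0.48.

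Among the other 11 named rises was the largest change of all. Nupr1, a small nuclear protein induced by many stresses and a known target of ATF4, measured 10.47, 11.34, 10.10 and 10.74 in controls and 13.08, 12.42, 12.38 and 12.48 under metformin. It rose 3.80-fold (1.93 ± 0.34, limma adjusted p = 0.0192). Metformin rat 1, the lowest of its group for most other named genes, was the highest for Nupr1. The Nupr1 promoter held TTGCATCA, a reverse match to TGATGNAA, the composite element of C/EBP and ATF factors, starting at base -55, and an E-box at -170.
Nupr1, chr1:190645852-190646151, minus strand: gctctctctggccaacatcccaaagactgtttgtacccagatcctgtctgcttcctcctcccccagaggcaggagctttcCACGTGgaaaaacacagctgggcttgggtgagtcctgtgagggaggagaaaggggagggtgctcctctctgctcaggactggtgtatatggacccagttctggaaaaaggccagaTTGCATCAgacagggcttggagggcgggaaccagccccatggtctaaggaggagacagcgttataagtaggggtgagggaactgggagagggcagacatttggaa
The same composite element was in 6 of 27 matched promoters of the ATF4 list described below and in 3.98% of all promoters.

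Tasor2, a relative of a gene-silencing factor, measured 7.15, 7.32, 7.42 and 7.01 in controls and 7.62, 8.22, 8.00 and 7.93 under metformin (0.72 ± 0.13, limma adjusted p = 0.0265). The remaining rises were smaller. Jpt2, which binds the calcium messenger NAADP, rose by 0.64, and Cdk7, the kinase of transcription factor TFIIH, by 0.59. Dock5, an activator of Rac, rose by 0.58, the atypical protein kinase C Prkcz by 0.57 and the zinc finger gene Zfp9 by 0.56. Cep152 of the centrosome rose by 0.49, Ccdc149 by 0.47, Gstcd by 0.37 and Nfatc3, a calcineurin-dependent transcription factor, by 0.31.

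The 12 pseudogene symbols among the calls comprised 10 of Hspa8, the constitutive cytosolic HSP70 chaperone also known as Hsc70, 1 of Ddx21 and 1 of Golga3. Such probe sets can share probes with the parent gene and are not separate findings. Hspa8 itself measured 18.18, 18.11, 18.34 and 18.31 in controls and 18.77, 18.97, 18.91 and 19.16 under metformin. The groups did not overlap, and the difference was 0.72 ± 0.17 without passing (limma adjusted p = 0.0725). The parent Ddx21, a nucleolar RNA helicase, differed by 0.77 (limma adjusted p = 0.0783), while the parent Golga3 was called.

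Both falls lay within the size range of the named rises and below their median of 0.59. Loxl1, which cross-links elastic fibres, measured 6.03, 6.20, 6.15 and 6.29 in controls and 5.83, 5.75, 5.50 and 5.64 under metformin, and it fell by 0.49 ± 0.10 (limma adjusted p = 0.0292). Slc8b1, the exchanger that lets calcium out of mitochondria for sodium, measured 8.30, 8.23, 8.36 and 8.35 against 7.93, 7.54, 7.74 and 7.88 and fell by 0.54 ± 0.11 (limma adjusted p = 0.0429). Of 11 measured genes of lysyl oxidases and elastic fibres, 9 lay below 0 with a median of -0.08, and 1 was called. Elastic fibres are made by fibroblasts and stellate cells. Of 16 markers of those cells 14 lay below 0 with a median of -0.10, and their summed log2 level was 13.39 to 14.03 in control rats and 13.32 to 13.61 in metformin rats. The part of those cells in the value of Loxl1 was not tested.

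The rats differed in how far the 36 named rises went. The median deviation of these genes from the control mean was 0.36, 0.66, 0.61 and 0.71 in metformin rats 1 to 4 and -0.01, 0.04, 0.08 and -0.08 in control rats 1 to 4. Metformin rat 1 was the lowest of its group in 29 of the 36 genes, and metformin rat 4 the highest in 18. Among controls rat 4 was the lowest in 21 and rat 3 the highest in 17. Because the genes were chosen by this contrast, these medians describe the rats and test nothing.

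Lists of genes for whole pathways describe the change over each pathway, with called members counted in. The lists were chosen with earlier results of these data known. Of all tested genes 1455 (7.39%) were higher and 1232 (6.26%) lower at an unadjusted p under 0.05, and each list is read against those shares. Of 53 ribosome assembly genes 52 lay above 0, 38 were higher at an unadjusted p under 0.05, none was lower, and 4 were called, namely Heatr1, Pwp1, Noc3l and Utp20. The median log2 change was 0.34, and in 28 of the 53 the groups did not overlap. Among members without a call, the helicase Ddx21 differed by 0.77, the GTPase Gnl2 by 0.73, the small-subunit factor Bysl by 0.61 and the large-subunit factor Wdr12 by 0.53 (limma adjusted p = 0.0783, 0.0787, 0.108 and 0.0727). The list's median in each rat was -0.02, 0.07, 0.04 and -0.10 in controls and 0.14, 0.51, 0.38 and 0.43 under metformin, so the groups did not overlap and rat 1 was lowest. Without control replicate 4, 32 members remained at an unadjusted p under 0.05 and none was called, and without metformin replicate 1 there were 40 and 16. The E-box, the binding letters of MYC and related factors, was in 17 of 46 matched promoters of the list and in 6.42% of all promoters. It was also in 8 of 29 matched promoters of the named rises. RNA polymerase I and its factors, which transcribe ribosomal RNA, had a median of 0.25 with 13 of 14 above 0 and 5 higher at an unadjusted p under 0.05. Polr1b, the second largest subunit, differed by 0.55 (limma adjusted p = 0.152).

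The cytosolic aminoacyl-tRNA synthetases, which load amino acids onto tRNA, had the highest median of the pathway lists, 0.44. All 18 lay above 0 and 15 were higher at an unadjusted p under 0.05, yet none was called. The asparaginyl enzyme Nars1 measured 11.65, 11.89, 11.65 and 11.54 in controls and 12.16, 12.74, 12.57 and 12.57 under metformin, a difference of 0.82 ± 0.19 (limma adjusted p = 0.0638). The isoleucyl enzyme Iars1 differed by 0.89, the histidyl enzyme Hars1 by 0.62 and the arginyl enzyme Rars1 by 0.52 (limma adjusted p = 0.0889, 0.0638 and 0.121). Per rat the list's median was -0.01, 0.07, 0.08 and -0.09 in controls and 0.32, 0.52, 0.44 and 0.47 under metformin, with less distance between rat 1 and the others than in ribosome assembly. The composite C/EBP and ATF element was in 7 of 16 matched promoters of the list and in 3.98% of all promoters. Translation initiation and elongation factors had a median of 0.22, with 25 of 26 above 0, 13 higher at an unadjusted p under 0.05 and none called. Eif1a, a scanning factor, differed by 0.84, Eif2b3, a subunit of the exchange factor on which the integrated stress response acts, by 0.43 and the cap-binding protein Eif4e by 0.40 (limma adjusted p = 0.0787, 0.0784 and 0.0787). In tRNA modification, export and cleavage 8 of 25 were higher at an unadjusted p under 0.05 and 2 were called, Mettl1 and Xpot. Trmt61a and Trmt6, both subunits of the tRNA adenine methyltransferase, differed by 0.66 and 0.51 (limma adjusted p = 0.186 and 0.0803). In diphthamide synthesis 3 of 6 were higher at an unadjusted p under 0.05, with Dph5 called.

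**Figure D2:**
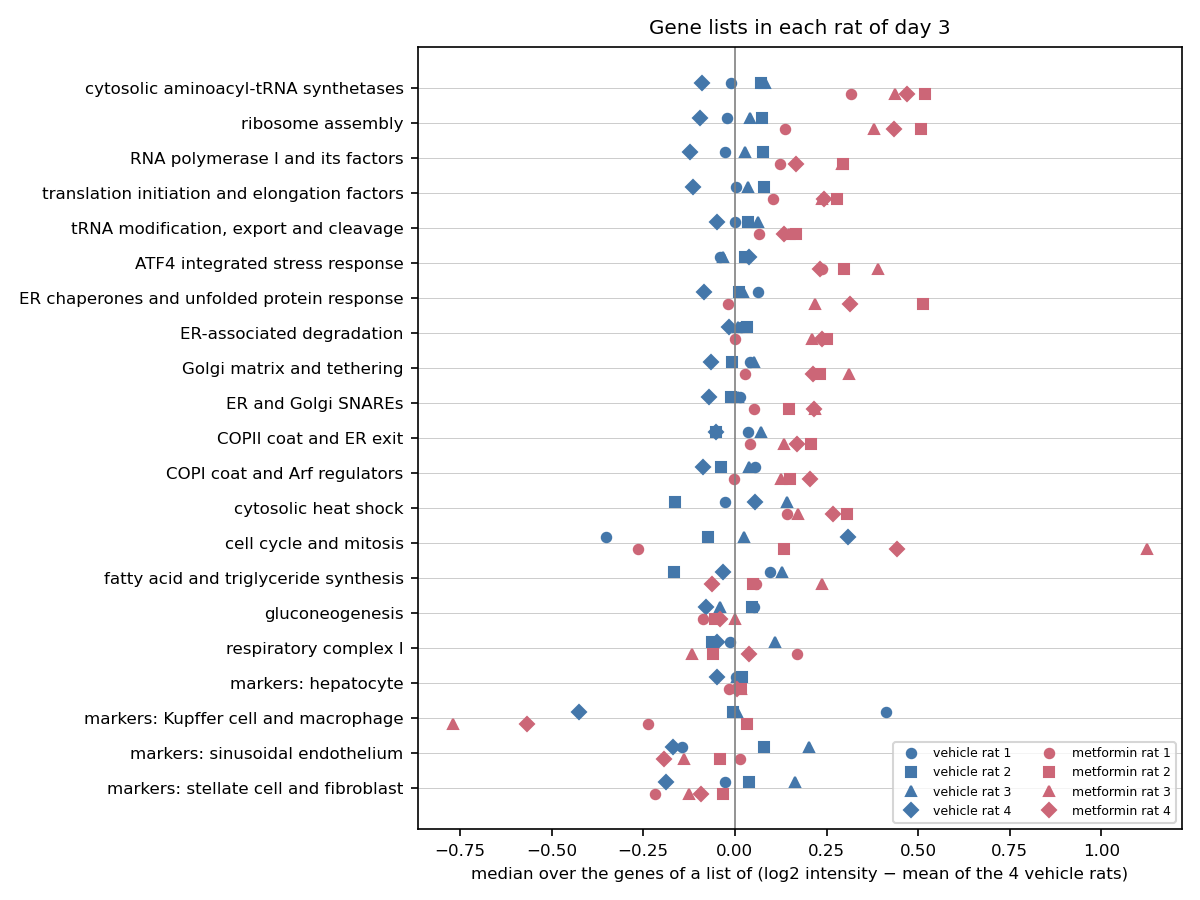
Median over the genes of each list of the log2 intensity minus the mean of the 4 control (vehicle) rats of day 3, one symbol per rat. For the synthetases, ribosome assembly and ATF4 lists all metformin rats lie to the right of all controls, while for ER chaperones metformin rat 1 lies at -0.02, among the controls.

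The lists of the secretory pathway had medians from 0.11 to 0.20. Golgi matrix and tethering genes had a median of 0.20, with 29 of 39 above 0, 18 higher at an unadjusted p under 0.05 and 4 called, which were Golph3l, Blzf1, Golga3 and Cog3. The golgins Golga1 and Golga5 differed by 0.58 and 0.40, the tethering factor Rint1 by 0.56 and the tether subunit Cog6 by 0.40 (limma adjusted p = 0.0996, 0.0997, 0.0714 and 0.0787). ER and Golgi SNAREs and their partners had a median of 0.19 with 7 of 21 higher at an unadjusted p under 0.05, Stx5 and Scfd1 called, and Sec22b, the R-SNARE of that step, at 0.52 (limma adjusted p = 0.0997). The COPII coat and its ER exit sites had a median of 0.14, with 27 of 31 above 0 and 11 higher at an unadjusted p under 0.05. Sec23b was called there, and the Sec23 partner Sec23ip differed by 0.54, the cargo adaptor Sec24d by 0.51 and the cargo receptor Lman1 by 0.45 (limma adjusted p = 0.0638, 0.0787 and 0.0633). COPI and Arf regulators had a median of 0.11 with 7 of 21 higher at an unadjusted p under 0.05, Arfgap3 called and the coat subunit Arcn1 at 0.39 (limma adjusted p = 0.0787). The COPI median was 0.049 after cyclic loess, with 5 of 21 higher and 1 lower, and 0.052 after quantile normalization, with 6 higher and 1 lower. Metformin rat 1 lay among or close to the controls in all 4 lists, with list medians of 0.03, 0.05 and 0.04 for the first 3 lists and close to 0 for COPI. The other metformin rats had medians from 0.13 to 0.31. The Golgi stress element was in 5 of 30 matched promoters of the Golgi list, 5 of 21 of the SNAREs, 7 of 27 of COPII and 7 of 19 of COPI. It was in 2.30% of all promoters. The overlapping unfolded protein response element, in 0.595% of all, was in 2 of 30, 2 of 21, 1 of 27 and 7 of 19.

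In the stress responses of the ER, single genes ranked the rats differently. Of 23 ER chaperones and unfolded protein response genes 20 lay above 0 and 10 were higher at an unadjusted p under 0.05, with a median of 0.19, and none was called. Herpud1, which serves ER-associated degradation, measured 8.30, 8.85, 8.82 and 8.998 in controls and 10.38, 9.82, 9.76 and 9.86 under metformin, a difference of 1.22 ± 0.29 (limma adjusted p = 0.0727) with rat 1 highest. Creld2, a secreted ER stress protein, measured 9.62, 9.30, 9.62 and 9.35 against 9.77, 10.73, 10.23 and 10.91, a difference of 0.94 ± 0.21 (limma adjusted p = 0.0627) with rat 1 lowest. Hspa5, the main ER chaperone BiP, measured 16.55, 16.34, 16.65 and 16.35 against 16.55, 16.94, 16.78 and 17.02, a difference of 0.35 with overlapping groups (limma adjusted p = 0.230). So within 1 rat 1 marker of ER stress was at the top of its group while others were near the controls. Xbp1, a transcription factor of this response, differed by -0.32 (limma adjusted p = 0.631). Edem1, which marks misfolded glycoproteins, differed by 0.76, and the co-chaperone Dnajb9 by 0.77 (limma adjusted p = 0.0727 and 0.160). The ER stress element was in 8 of 19 matched promoters of this list and in 0.0657% of all. ER-associated degradation had a median of 0.15 with 8 of 22 higher at an unadjusted p under 0.05. The UFM1 pathway had a median of 0.24 over 7 genes with 3 higher at an unadjusted p under 0.05, Ufl1 called, and Ufm1 itself at 0.34 (limma adjusted p = 0.217). Translocon, signal recognition and N-glycan transfer genes had a median of 0.11, with 9 of 38 higher at an unadjusted p under 0.05. The CREB3 family of membrane-bound transcription factors, which act in ER and Golgi stress, had 1 of 7 at that level, Creb3l2 at 0.82 (limma adjusted p = 0.189).

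The ATF4 list of the integrated stress response had a median of 0.31, with 25 of 30 above 0, 12 higher at an unadjusted p under 0.05 and only Nupr1 called. Chac1, which breaks down glutathione, differed by 0.61, the serine enzyme Psph by 0.51 and Slc7a1, a carrier of cationic amino acids, by 0.44 (limma adjusted p = 0.172, 0.0997 and 0.0956). Among classical markers, Trib3, a pseudokinase, differed by 0.23 (limma adjusted p = 0.542), and Ddit3, which encodes CHOP, by 0.26 (limma adjusted p = 0.440). Fgf21, a hormone of the liver, measured 5.32, 5.55, 5.62 and 5.27 in controls and 7.06, 6.36, 6.17 and 5.43 under metformin, so the groups overlapped, and rat 1 was highest as for Nupr1 and Herpud1 (0.82 ± 0.32, limma adjusted p = 0.267). This list shares tRNA synthetases with the list of that name.

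Cytosolic heat shock genes had a median of 0.19, with 8 of 22 higher and 1 lower at an unadjusted p under 0.05 and none called; 5 were higher after cyclic loess or quantile normalization. Hsph1, a nucleotide exchange factor of HSP70, differed by 0.99, the HSP90 co-chaperone Chordc1 by 0.74 and Stip1, which joins HSP70 to HSP90, by 0.62 (limma adjusted p = 0.185, 0.109 and 0.0808). Paired heat shock units, GAANNTTC, were in 11 of 18 matched promoters of the list and in 8.59% of all. The proteasome had a median of 0.11 with 9 of 32 higher at an unadjusted p under 0.05, and 3 after cyclic loess or quantile normalization. The chaperonin TRiC and prefoldin had a median of 0.16 with 3 of 12 higher, and of 0.11 with 2 after either normalization. Genes of mitochondrial gene expression had a median of 0.19 with 10 of 21 higher at an unadjusted p under 0.05 and Mterf1 called; the elongation factor Tefm differed by 0.63 (limma adjusted p = 0.106). The mitochondrial stress response had a median of 0.10 with 2 of 15.

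**Figure D3:**
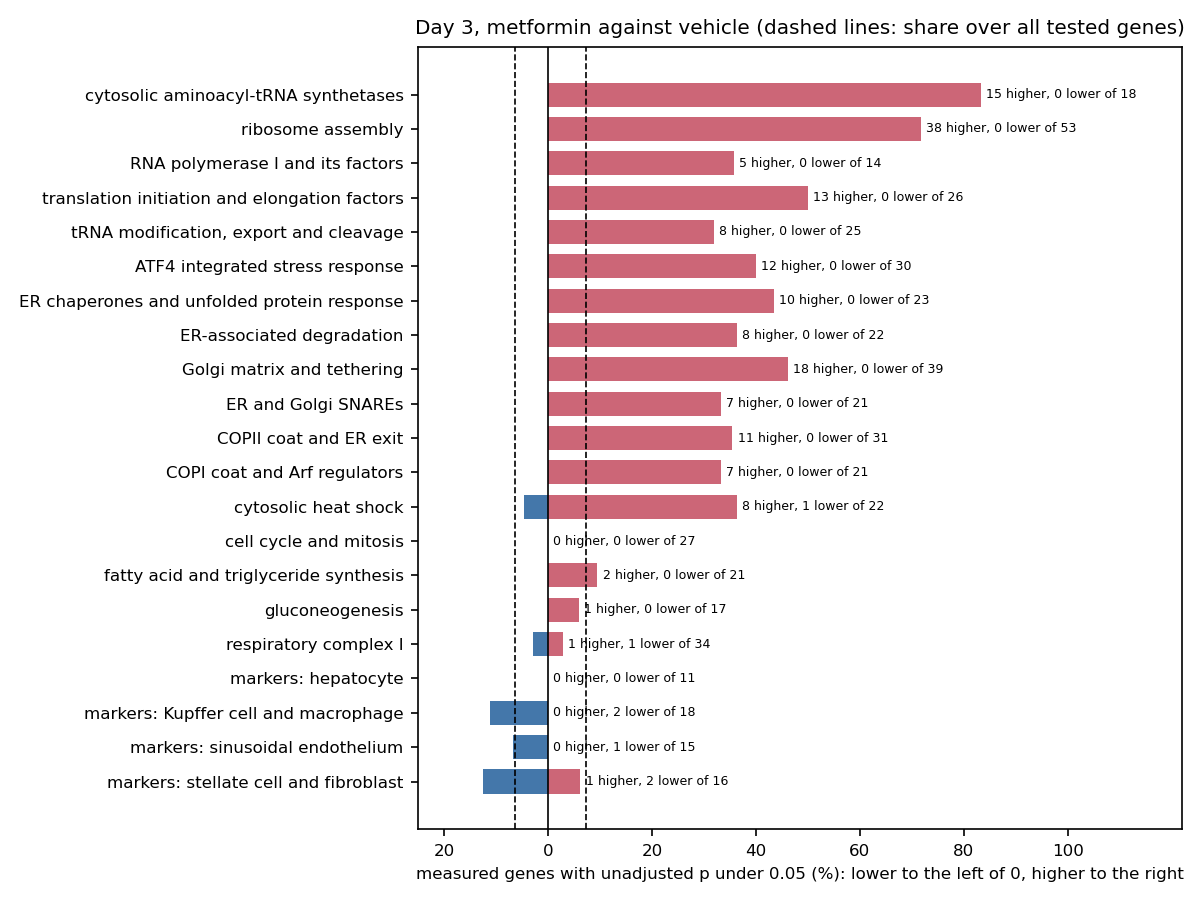
Share of the measured genes of each list that were higher (red, right) or lower (blue, left) in metformin livers at an unadjusted p under 0.05 on day 3, in percent. The dashed lines mark the shares over all tested genes, 7.39% higher and 6.26% lower; 15 of 18 synthetases and 38 of 53 ribosome assembly genes were higher, against 1 of 17 genes of gluconeogenesis.

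Lists for the processes for which metformin is best known had medians close to 0 on day 3. Respiratory complex I genes had a median of 0.02, with 1 of 34 higher and 1 lower at an unadjusted p under 0.05. Gluconeogenesis had a median of 0.03 with 1 of 17 higher, and insulin, AMPK and FOXO signalling 0.02 with 0 of 22 in either direction. Fatty acid and triglyceride synthesis had a median of 0.01 with 2 of 21 higher. Bile acid synthesis, urea cycle and amino acid breakdown, acute phase and complement, glucocorticoid response, circadian clock, NRF2 targets, cytochrome P450 and cholesterol synthesis lists had medians from -0.07 to 0.05. At an unadjusted p under 0.05, 4 of 15 glucocorticoid response genes were higher (2 after cyclic loess or quantile normalization), 1 of 17 circadian clock genes was higher and 3 were lower, and 1 of 28 urea cycle and amino acid breakdown genes was higher and 3 were lower. The other 5 of these lists had at most 1 member in either direction. For these 12 lists the sign of the median changed in at least 1 alternative normalization, array weighting or omission of an array, so no direction is given. Pck1, the first committed enzyme of gluconeogenesis, measured 17.60, 18.17, 17.23 and 18.04 in controls and 16.68, 16.64, 17.74 and 17.09 under metformin (-0.72 ± 0.49, limma adjusted p = 0.517), and the groups overlapped. Fasn, the fatty acid synthase, measured 13.55, 13.03, 14.31 and 13.72 against 14.45, 15.68, 13.95 and 13.81 (0.83 ± 0.53, limma adjusted p = 0.495), and metformin rat 2 stood highest. Igfbp1, a binding protein lowered by insulin, ranged from 11.09 to 14.82 in controls and from 9.57 to 13.38 under metformin (-1.42 ± 0.99, limma adjusted p = 0.530). Cpt1a, which brings fatty acids into mitochondria, differed by -0.35 (limma adjusted p = 0.677). Other members without a call were Pdk4, which restrains pyruvate oxidation, at -0.93 (limma adjusted p = 0.147), the iron uptake receptor Tfrc at 1.00 (0.166) and the oxidative stress gene Osgin1 at -1.62 (0.0811). PPARA targets had a median of 0.12 with 2 of 29 higher and 1 lower, and glycolysis and fructose use 0.04 with 3 of 20 higher, and 1 after cyclic loess or quantile normalization. Lysosome and autophagy genes had a median of -0.07 with 5 of 22 lower and 1 higher.

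All 27 genes of cell cycle and mitosis lay above 0 with a median of 0.36, but none had an unadjusted p under 0.05. Per rat the median was -0.35, -0.07, 0.03 and 0.31 in controls and -0.26, 0.13, 1.13 and 0.44 under metformin, so 1 animal, metformin rat 3, set the value and the groups overlapped. DNA replication genes had a median of 0.14 with 3 of 23 higher at an unadjusted p under 0.05.

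Markers of cell types were set beside these changes. The 11 measured hepatocyte markers had a median of 0.01, with 0 at an unadjusted p under 0.05 and a summed log2 level of 22.03 to 22.15 in controls and 22.10 to 22.15 under metformin. All 18 markers of Kupffer cells and macrophages, the phagocytes of the liver, lay below 0 with a median of -0.40, of which 2 were lower at an unadjusted p under 0.05 and none was called. Per rat the median was 0.41, -0.01, 0.01 and -0.42 in controls and -0.24, 0.03, -0.77 and -0.57 under metformin, so the groups overlapped, and the summed log2 level was 14.42 to 15.39 in controls and 13.95 to 15.00 under metformin. Timd4, a receptor of resident macrophages, differed by -0.37 (limma adjusted p = 0.155). At that level 4 of the 18 were lower after cyclic loess, 5 after quantile normalization and 9 without control replicate 4. In whole liver, fewer cells of a type and less RNA per cell cannot be told apart. Sinusoidal endothelium had a median of -0.09 with 14 of 15 below 0. Cholangiocyte, lymphocyte, neutrophil, erythroid, pancreatic acinar and adipocyte lists had medians from -0.20 to -0.04 with at most 2 members lower at an unadjusted p under 0.05. In the erythroid and adipocyte lists 1 member each was higher at that level, Tfrc and the lipid droplet gene Cidec, which were also the brightest of their lists. The summed log2 level ran against the median there, at 10.82 to 11.29 in controls and 11.39 to 11.79 under metformin for the erythroid list and 11.27 to 11.55 and 11.60 to 11.79 for the adipocyte list, with no overlap of the groups. In the other 4 lists the summed levels overlapped. No marker of these 10 lists was called. The part of any of these cell types in the rises was not tested.

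The effect on day 3 was then set beside that in the separate rats of days 1 and 14. Of the 36 named rises, 35 lay above 0 on day 14 (52.7% of tested genes did), 22 were called higher there (2.07% of tested genes), and in 31 the groups did not overlap upwards (5.07%). Their median log2 change on day 14 was 0.51. On day 1, 30 lay above 0 (55.6% of tested genes), 8 were higher at an unadjusted p under 0.05 (5.75%), and none was called (0.0152%); the median was 0.13. The genes were chosen for large values and small spread on day 3, and the fit shares its estimate of the spread among the days, so values on the other days tend to be smaller by choice, and a small spread favours calls there too. Of the secretory genes 14 of 15 lay above 0 on day 1 with a median of 0.24, and 11 were called on day 14 with a median of 0.59. Of the 8 genes of ribosomes, tRNA and translation 5 lay above 0 on day 1 with a median of 0.09, and 5 were called on day 14 with a median of 0.53.

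Values of single genes are given here, and for no named rise did a difference between days pass the limma test. Mettl1 was at 0.14 on day 1, 0.94 on day 3 and 1.01 on day 14 (limma adjusted p = 0.00640 on day 14). Sec23b was at 0.28, 1.11 and 0.90 (limma adjusted p = 0.0159 on day 14), and Stx5 at 0.38, 0.57 and 0.50 (limma adjusted p = 0.00755 on day 14). In these genes the change after 14 days was as large or nearly as large as after 3. Golph3l was at 0.53, 1.24 and 0.70 (limma adjusted p = 0.0763 on day 14). Nupr1 was at 0.62, 1.93 and 0.62 (limma adjusted p = 0.373 on day 14), and Nfatc3 was the one named rise below 0 on day 14, at -0.03. Slc8b1 was at 0.08, -0.54 and -0.81 (limma adjusted p = 7.49e-04 on day 14), whereas Loxl1 was at 0.29, -0.49 and -0.09.

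Differences between days were tested directly. Between days 3 and 1 limma called 0 of 19686 genes, with 2102 (10.7%) at an unadjusted p under 0.05, and 29 of the 36 named rises were among these. The smallest adjusted p among them was 0.0641. The named rises were chosen for their change on day 3, which enters this difference and the next. Their counts here are therefore partly set by that choice. Between days 14 and 3 it called 1 gene (0.00508%), the fatty acid transport protein gene Slc27a3, named after its values were seen, whose effect was higher on day 14 by 0.76 ± 0.11 (limma adjusted p = 0.0276). It was dim, with a mean log2 intensity of 4.28 in the rats of day 3. Of the 36 named rises 5 had an unadjusted p under 0.05 for that difference (7.54% of tested genes), and the smallest adjusted p was 0.426. The lists are given as medians, with no test of their own. Ribosome assembly had medians of 0.04, 0.34 and 0.34 on days 1, 3 and 14, with 14 of 53 called on day 14, and the synthetases 0.22, 0.44 and 0.40. The ATF4 list was at 0.09, 0.31 and 0.13. The proteasome was at 0.04, 0.11 and 0.30, and fatty acid and triglyceride synthesis at -0.44, 0.01 and 0.64.

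**Figure D4:**
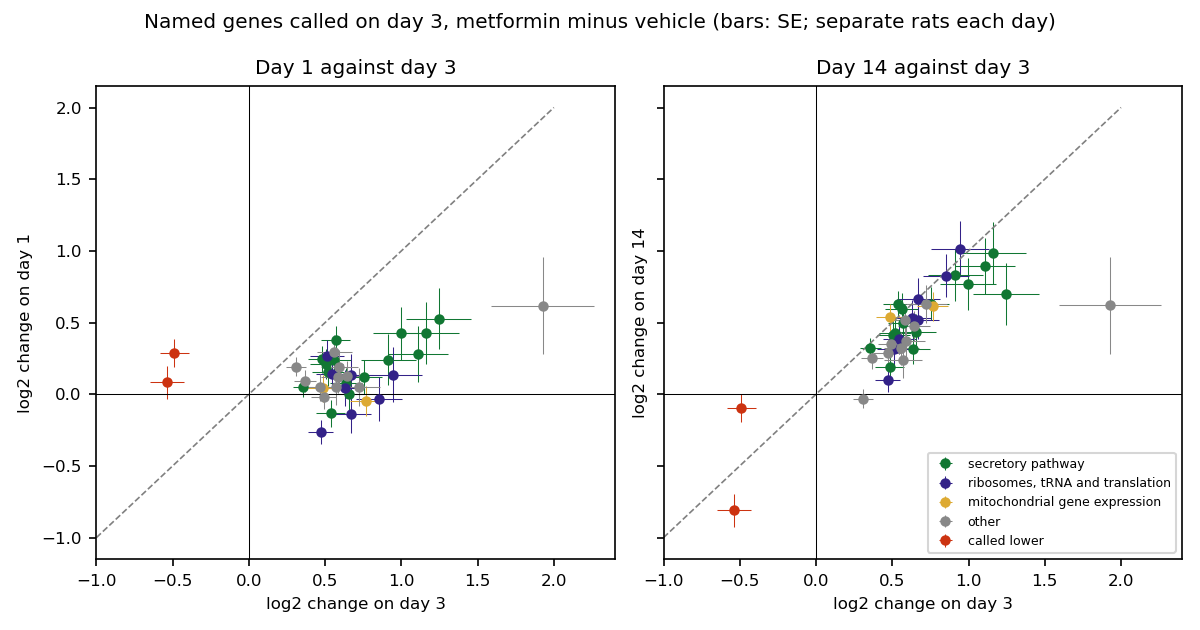
Log2 change (metformin minus control) of the 38 named genes on day 3 on the x axis against that on day 1 (left) and day 14 (right), with standard errors; the dashed line marks equal values and the colours the genes' roles. All 36 rises lie below the line on day 1, and 32 of 36 on day 14, where most lie close to it; Nupr1 is the point at 1.93.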

How the data were processed

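Liver RNA of 24 rats, 1 rat per Affymetrix array, was measured in 6 groups of 4 taken from the array titles. Linear intensities, 1 for each array and probe set, were made by the authors with RMA, per the submitters' processing notes; the software behind them is not given in the sources used here. Per array the highest intensities, 982564 to 994415, exceed a scanner's range; the rescaling is not described, and folds hold on the deposited scale.

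Log2 of each intensity was taken. Of 68842 probe sets, 23446 had 1 symbol, 505 several and 44891 none; the brightest probe set by its mean over all arrays stood for each of 22093 genes. Genes above the 30th percentile of all values (4.28 in log2) in at least 4 arrays were tested. Limma 3.58.1 in R 4.3.3 fitted 1 mean per group over all 24 arrays, with two-sided p-values and Benjamini-Hochberg adjustment over 19686 genes. Errors are standard errors of this fit (n = 4 rats per group). The number of arrays limits the precision. The steps were tested on simulated data, where 20% of the genes changed by 0.3 in log2 were called. At 0.5, 1 and 2 the share was 68%, 88% and 100%, and 11 of 149 calls were false.

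Named genes are all genes called on day 3 except pseudogene and uncharacterised symbols, values in every rat being given for the 12 with the largest change; up to 6 further members per list with the smallest unadjusted p; and Pck1, Fasn, Cpt1a, Igfbp1, Fgf21, Trib3, Ddit3, Xbp1, Hspa5, Hspa8 and Timd4. Genes, lists, motifs and rules were chosen with earlier results of these data known. Promoters are those of RefSeq on GRCr8; 29 of the 36 named rises matched one. Alternatives were other normalizations, filters, probe set summaries, priors, array weights, a replicate block, the day 3 arrays alone and each day 3 array left out.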

Additional observations from a re-analysis of the deposited data

Results flagged for a closer look

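Within a group of 4 rats, 1 rat stood apart by Dixon's criterion in 6 of the 92 groups examined on day 3; chance flags about 1 in 20. The groups are the same 8 rats measured for different genes, most of them chosen by a call. They are not independent, so that share is only a rough guide. Metformin rat 1 was the outlying rat in 5 of the 6. It was the lowest of its group for Golph3l at 9.82, for Ufl1 at 10.70, for Golga3 at 8.20 and for Chmp1b2 at 9.99, and the highest for Nupr1 at 13.08, all in log2 intensity. Control rat 4 was low for Arfgap3 at 8.57.

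For 2 genes the metformin rats lay above their controls on day 3 and below them on day 1. Nopchap1, a helper in small nucleolar ribonucleoprotein assembly, differed between the days by 0.73 on the log2 scale (limma adjusted p = 0.0641). Scfd1, the partner of the SNARE Stx5, differed by 0.67 (limma adjusted p = 0.147). Neither difference passed.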

How the results depend on the processing

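Against 50 calls on day 3, 48 of them higher, array weights gave 267 (223 higher), a fit without pseudogene symbols 32 (31 higher) and the day 3 arrays alone 0 (0 higher); with an array left out the count ran from 1 to 372 (1 to 333 higher). With the replicate number as a block it was 1 (1 higher). Deviations from the group mean correlated at 0.09, 0.03, -0.002 and 0.02 between same-numbered rats and at -0.09 to 0.12 between the others. With 4 rats per group these values cannot settle whether the numbers pair the rats. Against 0 calls, the difference between days 3 and 1 gave 4 after quantile normalization, 3 after cyclic loess, 1 after centring, 4 above the 50th percentile, 1 with a trend and robust prior, 13 with array weights and 0 to 11 with an array left out. Against 1 call, the difference between days 14 and 3 gave 2 after cyclic loess, 0 above the 50th percentile, 0 with a trend and robust prior, 3 with array weights, 0 with the replicate block and 0 to 6 with an array left out. The causes were not tested. Of genes called on day 3, 21 to 34 were called on day 14 over these settings, against 29. For the 203 named genes, 3438 values over 19 settings kept their direction and their side of the threshold, 322 lost the call, 96 gained one and 0 reversed. The 322 losses come from the 38 called genes alone, of which 37 lost the call in at least 1 omission of an array. With 4 rats per group, a call depended on the spread as well as the size: Nfatc3 was called at 0.31, and Iars1 was not at 0.89.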
